A study of Homo sapiens with 27 samples.

Results

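DU145 and PC3 are human prostate cancer cell lines established from a brain and a bone metastasis. The comparison described here is between their control guide libraries, which are 6 of the 27 RNA sequencing libraries of a study of RIPK2 knockout in 3 prostate cancer lines: 3 DU145 libraries and 3 PC3 libraries, each labelled with control guide RNA #1 and with wild-type RIPK2. The other libraries of these lines carry RIPK2 guide 2 or guide 10, and the remaining line is 22Rv1, a line that keeps luminal prostate genes and serves below as a point of reference without a test. No drug, dose or time is given for any of these groups. The labels do not say whether the guide-carrying cells were pools or single clones, nor whether the 3 libraries of a line came from separate cultures, so the tests measure the spread between these libraries, which may be technical.

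The luminal cell of the prostate secretes proteins such as KLK3, prostate specific antigen, under the control of androgens and of lineage factors that include FOXA1 and HOXB13. Cell lines that have lost this programme survive on other inputs, among them growth factor receptors, the RAS-ERK and PI3K-AKT cascades, STAT3 and NF-kB, and they differ from each other in which tumour suppressors were lost on the way. CTNNA1, alpha-catenin, ties cadherins to actin, and PC3 is known as a line without a functional copy of it.

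The DU145 libraries held 20003797 to 20118973 counts and the PC3 libraries 20504255 to 20650819. Values were set on one scale as CPM, the share of a library's counts scaled to a fixed total, with trimmed mean (TMM) factors, and 3 counts in a library, taken here as the limit at or below which a gene is called off when all 3 libraries of a line meet it, equal 0.138 CPM in DU145 and 0.158 CPM in PC3. Replicate libraries of a line correlated with r = 0.998 on log2(CPM + 1) across genes, and the common coefficient of variation was 3.53% in DU145 and 3.27% in PC3. The epithelial markers KRT8, KRT18 and EPCAM were present in all 6 libraries, EPCAM with 1244, 1169 and 1200 counts in DU145 and 850, 783 and 822 in PC3. Of 23 markers of other cell types, 18 were too low to test. The list's summed level was 6.14 CPM in DU145 and 14.4 CPM in PC3, with the leukocyte gene PTPRC at 2 counts or fewer, the erythroid gene HBB at 0 (not listed in the DU145 table) and PDGFRA, a fibroblast marker, at 213, 201 and 226 counts in PC3 against 0, 3 and 4 in DU145. CD14 gave 60, 40 and 62 counts in DU145 and 3, 3 and 9 in PC3, and LST1 15, 16 and 14 and 0, 0 and 1. SNAP25 gave 40, 45 and 44 counts in DU145 and 0, 0 and 0 in PC3, and PECAM1 5, 1 and 0 and 34, 45 and 35. Whether rare other cells contribute to any result was not tested, and in RNA from whole cultures fewer cells expressing a gene and less RNA per cell cannot be told apart. Each line was deposited as a table of its own, so cell line and table cannot be told apart either.

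The lines differed in most genes. In a test of 15152 genes, 13477 (88.9%) fell below an adjusted p of 0.05 by edgeR's quasi-likelihood test with Benjamini-Hochberg adjustment, 6662 of them higher in PC3 (44%) and 6815 higher in DU145 (45%). Because that threshold separates little, a gene is called here only when it also differed at least 2-fold: 3306 genes were called higher in PC3 (21.8% of those tested) and 3419 higher in DU145 (22.6%), 44.4% together. The libraries of the lines did not overlap for 88.8% of the genes tested. At 16-fold or more 783 genes were higher in PC3 (5.17%) and 923 in DU145 (6.09%), and at 256-fold or more 318 (2.1%) and 304 (2.01%). The median log2 fold change over all genes tested, PC3 minus DU145, was -0.02, and every gene list below is set beside that value and the shares of 21.8% and 22.6%. With library totals in place of TMM factors that median moved by -0.24, and with upper quartile factors by -0.09, so fold changes are relative to the TMM scale and a list median within that distance of 0 gives no direction. On library totals 2710 genes were called higher in PC3 and 4133 higher in DU145. Values in parentheses after a gene name are log2 fold changes, PC3 minus DU145, and list medians are medians of these; a count of tested list members leaves out those too low in both lines. The plot of mean levels in both lines shows the bulk of genes near the diagonal and a dense fringe along each axis.

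**Figure D1:**
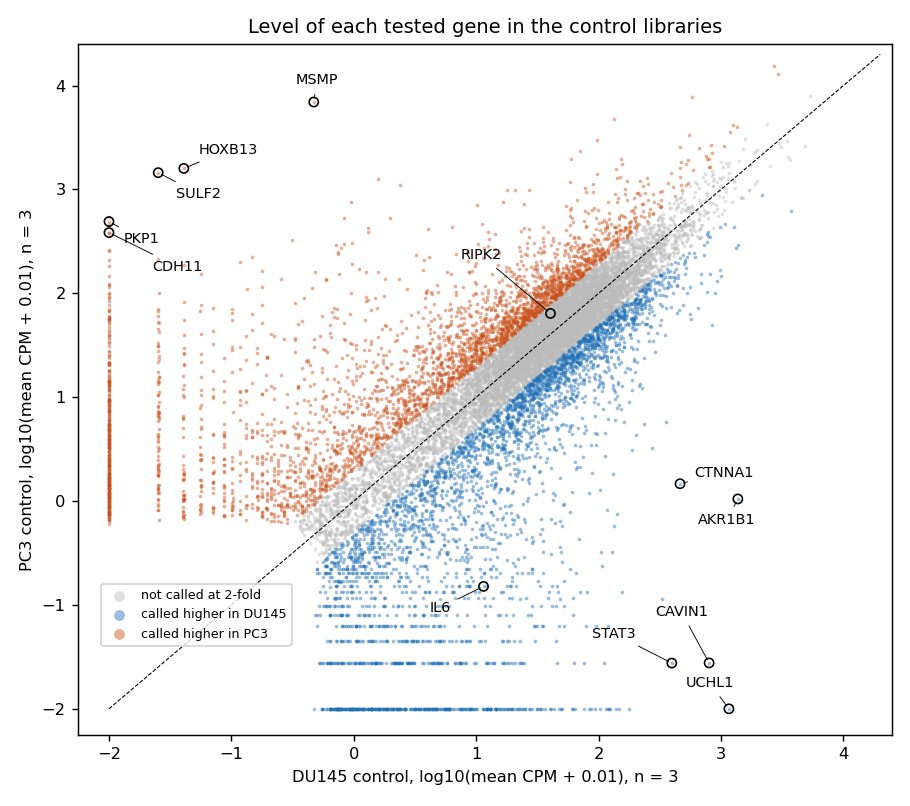
Mean level of each tested gene in the 3 DU145 libraries (horizontal axis) and the 3 PC3 libraries (vertical axis), both as log10(CPM + 0.01), with genes called at 2-fold coloured by direction and named examples circled. CAVIN1, STAT3 and UCHL1 lie at the bottom edge, HOXB13, SULF2 and PKP1 at the left edge.

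The fringes are genes that one line used and the other did not. In PC3, 735 of the tested genes (4.85%) had at most 3 counts in every library while some DU145 library had more, and 239 of them reached 5 CPM in DU145; 126 of the 735 were not listed in the PC3 table and were taken as 0. In DU145, 557 genes (3.68%) were off in the same sense, 215 of them at 5 CPM or more in PC3, and 170 were not listed in the DU145 table. Of the genes named below as off, ADGRF1, AGR2, CDH11, CHAMP1, FLI1, KLHL4, LAMA4, MIR3185, NAP1L3, PABPC5, PRAC1, TWIST1 and ZNF649 were not listed in the DU145 table, and CAVIN3, GHDC, HOXB7, LINC00707, LMO3, NKX2-1, PARP6, PRKCQ, PRKCQ-AS1 and SFTA3 were not listed in the PC3 table. Their 0 counts are taken from that absence. Folds for such genes are given as lower limits against 3 counts per library.

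UCHL1, a ubiquitin hydrolase abundant in neurons, gave 25568, 23961 and 26099 counts in DU145 and 0, 0 and 0 in PC3, at least 7321-fold higher in DU145. RAB31, a trafficking GTPase, gave 3871, 3919 and 3684 counts in DU145 and 0, 0 and 0 in PC3, and LAMA1, a laminin chain, 2791, 2488 and 2573 counts in DU145 and 2, 1 and 0 in PC3. ANKRD1, a known target of YAP signalling, gave 3375, 3398 and 3331 counts in DU145 and 3, 3 and 1 in PC3. Each of these genes was high in all 3 DU145 libraries and at 3 counts or fewer in all PC3 libraries. LMO3, a LIM-only transcriptional cofactor, and PLPP2, a lipid phosphatase, behaved alike, at least 929-fold and 747-fold higher in DU145, although LMO3 was not listed in the PC3 table.

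In the other direction SULF2, which trims heparan sulphate, gave 1, 0 and 0 counts in DU145 and 27118, 27649 and 27637 in PC3, at least 10509.8-fold higher in PC3. PKP1, a desmosome plaque protein, gave 0, 0 and 0 counts in DU145 and 9050, 9402 and 9437 in PC3. AGR2, a disulphide isomerase of secretory cells, gave 0, 0 and 0 counts in DU145 and 5376, 4440 and 4798 in PC3 and was not listed in the DU145 table. No DU145 library had more than 1 count for any of these 3 genes. ADGRF1, an adhesion G protein-coupled receptor, LINC02582, PHACTR3, FBN2 (fibrillin 2), SHISA3, ONECUT3 and NTSR1, the neurotensin receptor, followed, with lower limits between 1343-fold for NTSR1 and 3953-fold for LINC02582. With HOXB13 and CDH11, described below, these are the 12 genes off in DU145 with the highest CPM in PC3.

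Promoters differ in how many CG dinucleotides, the sites of DNA methylation, they hold. Methylation was not measured, but the letters can be described. The promoters of UCHL1, the gene off in PC3 with the highest CPM in DU145, and of PKP1, which returns below among the desmosome genes, are taken from RefSeq (GRCh38.p14) as the 250 bases before the gene start, with every CG in capitals. UCHL1 lies on chr4:41256678-41256927 (plus strand) with 20 CGs and PKP1 on chr1:201283256-201283505 (plus strand) with 17.
UCHL1: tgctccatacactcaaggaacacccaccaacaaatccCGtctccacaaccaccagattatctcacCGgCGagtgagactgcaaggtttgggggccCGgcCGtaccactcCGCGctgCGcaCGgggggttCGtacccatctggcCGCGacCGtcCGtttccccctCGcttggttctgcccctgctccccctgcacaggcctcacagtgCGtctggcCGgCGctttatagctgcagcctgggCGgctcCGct
PKP1: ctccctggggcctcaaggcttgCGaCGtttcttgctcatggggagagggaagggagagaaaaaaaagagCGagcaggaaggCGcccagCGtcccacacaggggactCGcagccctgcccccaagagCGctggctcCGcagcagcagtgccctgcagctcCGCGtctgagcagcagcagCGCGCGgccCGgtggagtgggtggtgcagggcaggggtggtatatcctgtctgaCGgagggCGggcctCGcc
Across the 27303 promoters of the table the median was 11 CGs, and for 11501 matched genes among those tested it was 21. The 169 matched genes that were off in PC3 and reached 5 CPM in DU145 had a median of 18 CGs (quartiles 11 and 27). The 155 matched genes off in DU145 and at 5 CPM or more in PC3 had a median of 10 (quartiles 3 and 23). These medians are a description of the promoter letters, without a test.

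The secreted kallikreins KLK3 and KLK2 had 0 counts in all 6 libraries, KLK2 being unlisted in the PC3 table. Several luminal transcription factors, however, were present in PC3 and not in DU145. HOXB13, a homeobox factor of the prostate lineage, gave 0, 0 and 2 counts in DU145 and 30571, 29596 and 30415 in PC3, at least 11553-fold higher in PC3; the PC3 mean of 1593 ± 29.9 CPM (SD, n = 3) compares with 344 ± 32.1 CPM in 22Rv1. SPDEF, an ETS factor of secretory epithelium, gave 0, 0 and 0 counts in DU145 and 1015, 928 and 1069 in PC3, and TMPRSS2, an androgen-induced protease, 2, 2 and 3 counts in DU145 and 197, 224 and 225 in PC3. All 3 PC3 libraries held each of these 3 genes, and no DU145 library had more than 3 counts for any of them. FOXA1, the pioneer factor, was higher in PC3 (1.97 ± 0.046, SE), whereas FKBP5, a steroid-induced chaperone gene, was higher in DU145 (-1.89). Of the 16 genes of the luminal list, 11 were tested, 7 were called higher in PC3 and 2 higher in DU145, with a median of 1.76.

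Tumour suppressor transcripts lay mainly on the DU145 side. CTNNA1 gave 10112, 10081 and 9979 counts in DU145 and 18, 26 and 39 in PC3, a log2 fold change of -8.30 with a standard error (SE) of 0.081 and an edgeR adjusted p of 1.44e-49. The DU145 and PC3 libraries lay far apart. The mean was 462 CPM in DU145 with an SD of 0.46 and 1.46 CPM in PC3 with an SD of 0.55, so the relative spread was small in DU145 alone. CDKN2A, which encodes p16 and ARF, was lower in PC3 (-1.38) while its neighbour CDKN2B, encoding p15, was higher (2.11). Other list members called higher in DU145 were BRCA2 (-2.32), BRCA1 (-1.76), APC (-1.61) and NF1 (-1.19); ATM (1.07), the damage kinase, was higher in PC3, although it fell just under 2-fold without DU145 replicate 3 (0.99) and with upper quartile factors (0.98). RB1 differed by -0.88 ± 0.056, under the 2-fold limit, and STK11 by 0.22 ± 0.047. Of the 23 members, all tested, 9 were called higher in DU145 and 3 in PC3, with a median of -0.78.

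Some of the genes used by only 1 line were neighbours. Among genes expressed at 5 CPM or more in either line and ordered along the chromosomes (RefSeq GRCh38.p14 positions), 6 stretches held 3 or more consecutive genes that were on in one line and off in the other. The one with the most genes lay on chromosome 17 from 42113111 to 42522579 and held 8 genes, all off in PC3: KAT2A, RAB5C, GHDC, STAT5B, STAT5A, STAT3, CAVIN1 and ATP6V0A1. STAT3, the transcription factor downstream of interleukin 6 receptors, gave 8836, 8485 and 8514 counts in DU145 and 0, 1 and 0 in PC3. STAT5B, its relative in growth hormone and prolactin signalling, gave 2527, 2542 and 2436 counts in DU145 and 0, 0 and 0 in PC3, and STAT5A 332, 304 and 304 counts in DU145 and 0, 0 and 0 in PC3. KAT2A, the GCN5 histone acetyltransferase, gave 2613, 2644 and 2629 counts in DU145 and 0, 0 and 0 in PC3, and ATP6V0A1, a proton pump subunit, 2183, 2004 and 2074 counts in DU145 and 1, 1 and 1 in PC3. No PC3 library had more than 1 count for any gene of the stretch. The expressed genes on its edges remained: C17orf113 on the proximal side gave 215, 159 and 180 counts in DU145 and 53, 50 and 56 in PC3, and NAGLU on the distal side 1055, 947 and 1133 counts in DU145 and 393, 353 and 360 in PC3. In the 6 PC3 libraries with RIPK2 guides, which the comparison did not use, STAT3 had 0 to 14 counts, STAT5B 0 to 2 and CAVIN1 0 to 2, while the 6 DU145 guide libraries had 4663 to 9694, 1145 to 3403 and 14925 to 19123. The plot of this stretch gives each library.

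**Figure D2:**
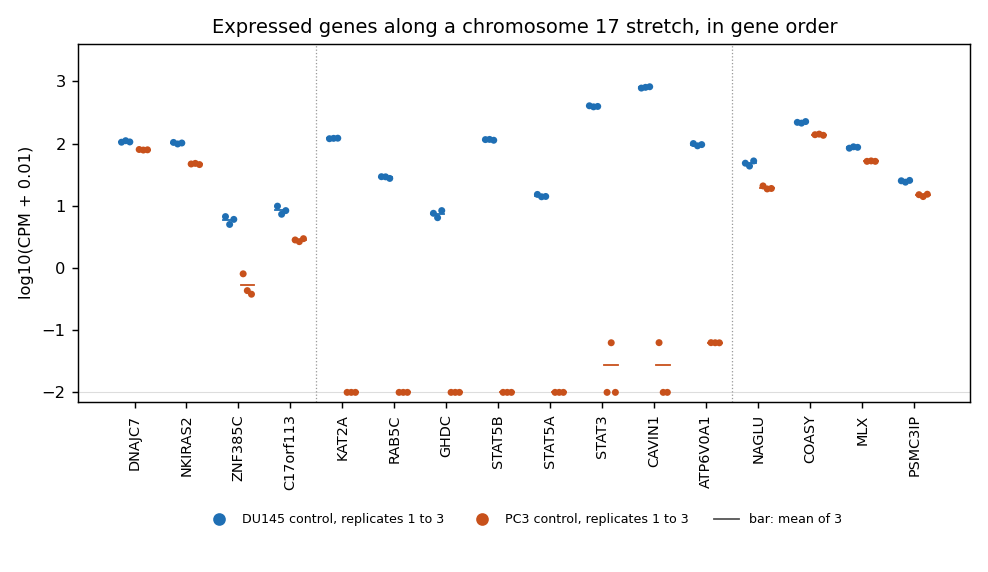
Levels of the expressed genes along the chromosome 17 stretch, in gene order from left to right, as log10(CPM + 0.01), with 1 point for each of the 3 DU145 and 3 PC3 libraries. The 8 genes from KAT2A to ATP6V0A1 sit at the floor in PC3, while the flanking genes were detected in both lines.

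A second stretch off in PC3 lay on chromosome 10 from 6394097 to 6842906, with PRKCQ (protein kinase C theta), PRKCQ-AS1, LINP1 and LINC00707. PRKCQ gave 327, 350 and 315 counts in DU145 and 0, 0 and 0 in PC3 and LINP1, a long noncoding RNA of DNA repair, 347, 357 and 381 counts in DU145 and 0, 0 and 0 in PC3. PRKCQ, PRKCQ-AS1 and LINC00707 were not listed in the PC3 table, and the strand setting of the counting is not given, so PRKCQ and its antisense partner cannot be separated with certainty. The next expressed gene, SFMBT2, a Polycomb-related factor, was low but present in PC3, with 1196, 1160 and 1068 counts in DU145 and 19, 18 and 16 in PC3. Another stretch, on chromosome 14 from 36473288 to 36582614, held SFTA3, NKX2-1 and NKX2-8; SFTA3 and NKX2-1 overlap. NKX2-1, the lineage factor of lung and thyroid, gave 2610, 2777 and 2712 counts in DU145 and 0, 0 and 0 in PC3, and NKX2-8 273, 255 and 305 counts in DU145 and 0, 0 and 1 in PC3; SFTA3 and NKX2-1 were not listed in the PC3 table.

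For CTNNA1 on chromosome 5 the neighbours HSPA9, with 12724, 12717 and 12862 counts in DU145 and 8024, 7903 and 7776 in PC3, and SIL1, with 548, 541 and 559 counts in DU145 and 157, 149 and 168 in PC3, were both present in PC3; these neighbours were chosen after their values were seen. Another pair, PARP6 and HEXA on chromosome 15, was chosen after its values were seen: PARP6 gave 1810, 1844 and 1783 counts in DU145 and 0, 0 and 0 in PC3 and HEXA, the lysosomal hexosaminidase, 1006, 995 and 986 counts in DU145 and 1, 0 and 0 in PC3, between the expressed neighbours PKM and ARIH1; PARP6 was not listed in the PC3 table.

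DU145 had silent stretches of 3, 4 and 3 genes. PRAC1, MIR3185 and HOXB13 on chromosome 17 from 48721719 to 48728750 had at most 2 counts in any DU145 library, against 1152, 1002 and 1080 counts for PRAC1 in PC3. The zinc finger genes on chromosome 19 from 51804442 to 51986840, ZNF577, ZNF649, ZNF613 and ZNF350, were off in DU145, with ZNF350 at 0, 0 and 0 counts in DU145 and 269, 220 and 235 in PC3. On the X chromosome KLHL4, PABPC5 and NAP1L3 were consecutive among expressed genes between 87517802 and 93673578; NAP1L3, a nucleosome assembly protein, gave 0, 0 and 0 counts in DU145 and 780, 805 and 828 in PC3. CHAMP1, a chromosome alignment gene on chromosome 13, was at 0, 0 and 0 counts in DU145 against 382, 414 and 411 in PC3, beside UPF3A, a nonsense-mediated decay factor, with 115, 108 and 100 counts in DU145 and 709, 699 and 685 in PC3; CHAMP1 was not listed in the DU145 table, and this pair too was chosen after its values were seen.

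Among the 258 windows of 10 Mb with at least 20 tested genes, the highest median log2 fold changes were 1.51 on chromosome 8 from 140 to 150 Mb, with 64 of 93 tested genes called higher in PC3, and 1.42 on chromosome 19 from 50 to 60 Mb, with 132 of 193. The lowest were chromosome 14 from 30 to 40 Mb, with -1.45 and 34 of 47 genes called higher in DU145, and chromosome 3 from 60 to 70 Mb, with -1.38. Whole chromosomes differed less: medians ran from -0.48 on chromosome 18 and -0.43 on chromosome 13 to 0.65 on chromosome 20 and 0.68 on the X chromosome.

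The caveolar set was uneven. CAVIN1, which shapes caveolae, gave 17010, 17468 and 17650 counts in DU145 and 1, 0 and 0 in PC3, at least 5046-fold higher in DU145. CAVIN2 and CAVIN3 were also off in PC3 (95, 161 and 135 counts for CAVIN3 in DU145), and EHD2, which anchors caveolae to the membrane, was higher in DU145 (-3.30). CAV1, the membrane coat protein itself, was the opposite, with 4393, 4290 and 4550 counts in DU145 and 9870, 10513 and 10319 in PC3 and a log2 fold change of 1.41 ± 0.040. Of 12 caveolar genes 8 were tested, 5 were called higher in DU145 and 1 in PC3, with a median of -2.58.

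Epithelial and mesenchymal genes were called in both directions. Of 29 epithelial adhesion and transcription factor genes 25 were tested, 7 called higher in PC3 and 8 in DU145, with a median of -0.23. CDH1, E-cadherin, gave 496, 390 and 368 counts in DU145 and 297, 300 and 336 in PC3 and a log2 fold change of -0.23 ± 0.087, below the 2-fold limit; 22Rv1 had 418 ± 9.22 CPM. ESRP1, the epithelial splicing factor, was used in DU145 alone, with 423, 407 and 378 counts in DU145 and 2, 1 and 0 in PC3, and DSC2, a desmocollin, was higher there (-6.46). EHF, an epithelial ETS factor, was used in PC3 alone, with 0, 1 and 0 counts in DU145 and 538, 718 and 617 in PC3, as was PKP1, and the vesicle protein MAL2 was higher there (9.32). The desmosome genes DSC2 and PKP1 therefore pointed in opposite directions.

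Of 27 mesenchymal genes 23 were tested, 11 called higher in PC3 and 7 in DU145, with a median of 0.97. VIM, vimentin, gave 12570, 13225 and 13021 counts in DU145 and 29541, 28742 and 29855 in PC3 (1.38 ± 0.039; edgeR adjusted p = 5.16e-33). CDH2, N-cadherin, gave 0, 0 and 0 counts in DU145 and 1705, 1801 and 1669 in PC3, and CDH11, the osteoblast cadherin, 0, 0 and 0 counts in DU145 and 6901, 7515 and 7414 in PC3. Both mesenchymal cadherins thus had counts in the 3 PC3 libraries alone, CDH11 with 0 taken from its absence from the DU145 table. FN1, fibronectin (5.07), and COL3A1 (7.45) were higher in PC3 too, and SPARC, a matrix glycoprotein of bone, gave 0, 0 and 0 counts in DU145 and 1140, 994 and 1120 in PC3. The TWIST factors divided: TWIST1 gave 0, 0 and 0 counts in DU145 and 280, 230 and 260 in PC3 and TWIST2 240, 287 and 313 counts in DU145 and 0, 0 and 0 in PC3. TGFBI, a matrix protein induced by TGF-beta, gave 2395, 2311 and 2473 counts in DU145 and 0, 1 and 0 in PC3, and LOXL2, a collagen crosslinking enzyme, was higher in DU145, with 5650, 5443 and 5746 counts in DU145 and 1160, 1328 and 1191 in PC3.

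Tight junction and polarity genes lay on the DU145 side, with 11 of 18 tested members (20 listed) called higher there, 1 called higher in PC3 and a median of -1.22. CRB3, an apical polarity protein (-5.41), OCLN, occludin (-3.65), and CLDN1, claudin 1 (-2.50), were higher in DU145, and MARVELD3 gave 173, 178 and 145 counts in DU145 and 0, 1 and 0 in PC3. The exception was CLDN4, claudin 4, with 86, 86 and 93 counts in DU145 and 7844, 7752 and 8114 in PC3 and a log2 fold change of 6.68 ± 0.062. Of 21 keratins 12 were tested and 6 were called higher in PC3 against 2 in DU145 (4 without the filter on low counts), with a median of 1.51. KRT20, a keratin of gastrointestinal and umbrella cells, gave 0, 0 and 0 counts in DU145 and 3413, 3354 and 3707 in PC3, and KRT81 (6.60; its reads may be shared with the near-identical KRT86) and KRT19 (2.48) were also higher in PC3; KRT80 (-4.05) and KRT7 (-3.16) were higher in DU145.

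Receptors for the matrix were split evenly: of 18 integrins tested (24 listed), 8 were called higher in PC3 and 7 in DU145, with a median of -0.0044. ITGB4, the hemidesmosome subunit, was higher in PC3 (3.16), as were ITGB8 (4.46), which activates latent TGF-beta, and ITGA3 (1.47); ITGA7 (-2.19) and the fibronectin receptor chain ITGA5 (-1.71) were higher in DU145. All 23 laminin and basement membrane genes were tested, 7 called higher in PC3 and 9 in DU145, with a median of 0.31. Here the chains were exchanged: LAMA1 and LAMB3 (-4.01) belonged to DU145, while LAMA4, with 0, 0 and 0 counts in DU145 and 392, 397 and 381 in PC3 and not listed in the DU145 table, belonged to PC3. The collagen IV pairs COL4A3 and COL4A4 were off in PC3, and the X-linked pair COL4A5 and COL4A6 was off in DU145, with 1096, 1147 and 1192 counts for COL4A5 in PC3. COL6A1, a collagen VI chain outside this list, had among the largest differences in CPM, 134 ± 1.97 CPM in DU145 and 4807 ± 59.3 CPM in PC3 (SD, n = 3).

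Extracellular proteases and their inhibitors were more often higher in PC3: 16 of 29 tested (44 listed) against 6 in DU145, with a median of 1.13. PLAT, tissue plasminogen activator (8.86), MMP1, an interstitial collagenase, with 1, 1 and 2 counts in DU145 and 1349, 1368 and 1372 in PC3, MMP13 (6.72) and SERPINB5, maspin (6.65), were PC3 genes. ADAMTS1 gave 0, 0 and 0 counts in DU145 and 476, 492 and 492 in PC3. MMP15, a membrane protease, was the strongest in the opposite direction, with 1189, 1217 and 1337 counts in DU145 and 85, 94 and 90 in PC3 (-3.60).

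Of 31 receptor tyrosine kinases tested (39 listed), 13 were called higher in PC3 and 9 in DU145, with a median of 0.46. MET, the hepatocyte growth factor receptor, was higher in PC3 (2.84 ± 0.044), as was the collagen receptor DDR1 (1.67), and EPHA7 was off in DU145, with 1, 0 and 0 counts in DU145 and 156, 159 and 154 in PC3. DU145 had more EGFR (-2.06 ± 0.053), ERBB3 (-2.44), AXL (-2.41) and IGF1R (-4.30). IGF1R gave 4000, 3760 and 3867 counts in DU145 and 167, 158 and 190 in PC3, and FLT4, the VEGF-C receptor, gave 583, 676 and 657 counts in DU145 and 2, 0 and 1 in PC3; its ligand VEGFC was higher in PC3 (3.66) and VEGFA higher in DU145 (-2.31). Among 26 growth factors tested (32 listed), 10 were called higher in PC3 and 8 in DU145, with a median of 0.75. EREG, epiregulin, an EGFR ligand, was higher in DU145 (-6.33), as were BDNF (-3.83) and CCN1 (-3.33), and NRG4 was off in PC3. GDF15, a stress cytokine of the TGF-beta family, gave 41, 44 and 67 counts in DU145 and 2708, 2442 and 2691 in PC3 (5.88), and FGF5 0, 0 and 0 counts in DU145 and 152, 190 and 178 in PC3.

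The feedback genes of the ERK cascade were higher in PC3 in 10 of 19 tested (20 listed) and in DU145 in 5, with a median of 1.01. DUSP4, a nuclear MAP kinase phosphatase, gave 24, 21 and 16 counts in DU145 and 13871, 14365 and 14424 in PC3 (9.64 ± 0.077), with SPRY4 (6.12) and DUSP6 (4.87) in the same direction. EGR1, an immediate early target of the same cascade, was opposite, with 949, 1056 and 926 counts in DU145 and 0, 4 and 1 in PC3. AP-1 and ETS factors gave 5 and 7 calls of 21 tested (25 listed), with a median of 0.06. FOSL1 (3.38), ETV4 (3.00), ETV1, with 1, 0 and 0 counts in DU145 and 509, 519 and 567 in PC3, and FLI1, with 0, 0 and 0 counts in DU145 and 151, 179 and 179 in PC3, were PC3 genes and BATF3 (-4.44) a DU145 gene. PI3K and AKT pathway genes were mostly under 2-fold, with 4 calls higher in PC3 and 2 in DU145 (5 with library totals) of 23 tested (26 listed) and a median of -0.11. The insulin receptor substrates were exchanged. IRS1 was higher in PC3 (1.70) and IRS2 higher in DU145 (-2.51).

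RIPK2, the kinase that relays NOD receptor signals to NF-kB and the target of the study, gave 820, 926 and 891 counts in DU145 and 1191, 1192 and 1256 in PC3. The libraries of the lines did not overlap, but the log2 fold change of 0.66 ± 0.052 (edgeR adjusted p = 3.81e-16) stayed under 2-fold. Its receptor NOD1 was higher in DU145, with 315, 299 and 308 counts in DU145 and 72, 72 and 69 in PC3 (-1.91 ± 0.10), and NOD2, with 7, 5 and 8 counts in DU145 and 0, 0 and 0 in PC3, was too low to test. BIRC3, a ubiquitin ligase of this complex and an NF-kB target, gave 505, 515 and 422 counts in DU145 and 55, 40 and 52 in PC3 (-3.09), and RIPK4, a related kinase, was higher in PC3 (1.84). Of 21 listed genes 19 were tested, 2 called higher in PC3 and 4 in DU145, with a median of 0.11.

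NF-kB subunits, inhibitors and feedback targets stood on the DU145 side: all 16 were tested, 10 were called higher in DU145 and 1 in PC3, with a median of -1.08. NFKBIA, the inhibitor induced by NF-kB itself, gave 4126, 4022 and 4178 counts in DU145 and 257, 302 and 275 in PC3 (-3.69 ± 0.055; edgeR adjusted p = 2.25e-44). TRAF1 (-3.68), an adaptor, and BCL3 (-2.81), a nuclear cofactor, followed, and NFKBIZ, another nuclear inhibitor protein, was the 1 exception, with 154, 168 and 142 counts in DU145 and 692, 758 and 730 in PC3 (2.43).

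Cytokines and chemokines were divided, 9 called higher in PC3 and 11 in DU145 of 25 tested (38 listed), with a median of -0.50. IL6, the inducer of STAT3 signalling, gave 247, 244 and 257 counts in DU145 and 3, 3 and 2 in PC3, at least 72.4-fold higher in DU145, the line that had STAT3. CXCL2 (-4.99), a neutrophil chemokine, CSF1 (-4.13), the macrophage growth factor, and IL32, with 1357, 1291 and 1398 counts in DU145 and 2, 0 and 4 in PC3, were DU145 genes as well. IL1B, interleukin 1 beta, was a PC3 gene, with 0, 0 and 3 counts in DU145 and 289, 294 and 297 in PC3.

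Interferon-stimulated genes, which encode antiviral proteins and share a promoter element read by interferon-activated factors, were more often higher in PC3: 46 of 48 were tested, 26 called higher in PC3 and 4 in DU145, with a median of 1.62. ISG15, a ubiquitin-like modifier, gave 426, 420 and 390 counts in DU145 and 2720, 2014 and 1902 in PC3 (2.62 ± 0.20; edgeR adjusted p = 0.000158). IFI6 gave 688, 671 and 684 counts in DU145 and 1321, 835 and 713 in PC3 and did not pass (edgeR adjusted p = 0.0721), OAS1, an RNA sensor, 10, 18 and 16 counts in DU145 and 1368, 1111 and 892 in PC3, and IFITM3, which blocks viral entry, 14, 19 and 15 counts in DU145 and 5225, 4089 and 4402 in PC3. IFI44L gave 0, 0 and 1 counts in DU145 and 351, 253 and 198 in PC3 and BST2, tetherin, 3, 1 and 3 counts in DU145 and 248, 172 and 115 in PC3. PC3 replicate 1 had the highest count in each of these 6 genes, yet every PC3 library lay above every DU145 library. The list was called on the PC3 side with that library left out as well: 26 of the 46 genes tested were called higher in PC3 and the median was 1.50. USP18 (-2.77), which restrains interferon signalling, and HERC5 (-2.43), the ISG15 ligase, were higher in DU145, with 700, 671 and 695 counts in DU145 and 96, 87 and 80 in PC3 for USP18.

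**Figure D3:**
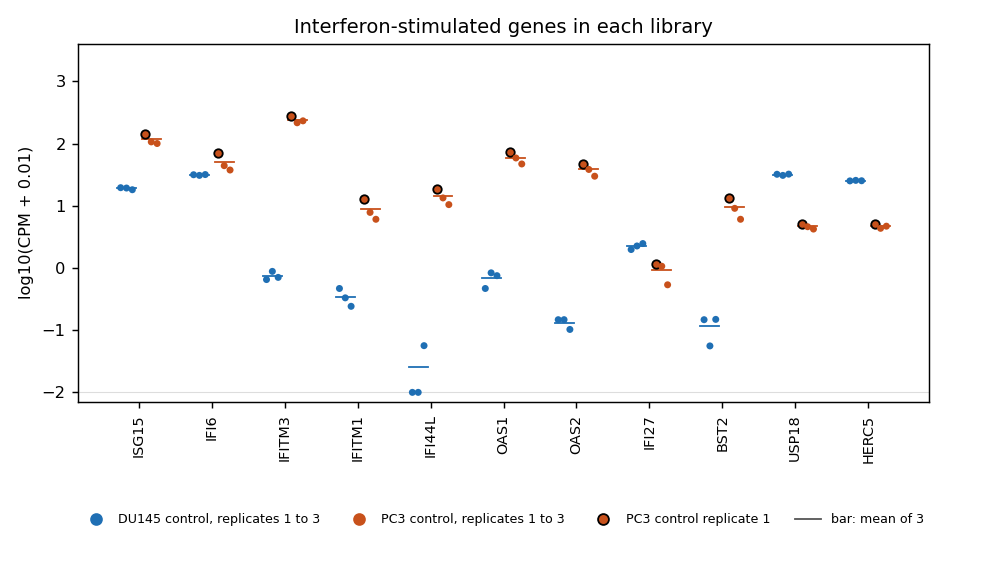
Levels of 11 interferon-stimulated genes in each library, as log10(CPM + 0.01), with DU145 and PC3 replicates as separate points, bars at the means and PC3 replicate 1 outlined. PC3 replicate 1 lies above the other PC3 libraries for the genes called higher in PC3, and USP18, HERC5 and IFI27 lie higher in DU145.

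The promoters of 3 of these genes are shown because they carry the letters of the interferon-stimulated response element core, which is GAAA, any 2 bases and GAAA again, searched on both strands and given in capitals (overlapping matches run together). They are the 250 bases before the start from RefSeq GRCh38.p14, at chr1:1013247-1013496 on the plus strand for ISG15, chr1:27672193-27672442 on the minus strand for IFI6 and chr11:320861-321110 on the minus strand for IFITM3.
ISG15: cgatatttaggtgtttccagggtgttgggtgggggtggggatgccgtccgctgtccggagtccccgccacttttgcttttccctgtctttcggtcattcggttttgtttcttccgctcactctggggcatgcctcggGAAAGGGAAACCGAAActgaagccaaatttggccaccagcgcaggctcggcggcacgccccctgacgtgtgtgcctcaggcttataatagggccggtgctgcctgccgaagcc
IFI6: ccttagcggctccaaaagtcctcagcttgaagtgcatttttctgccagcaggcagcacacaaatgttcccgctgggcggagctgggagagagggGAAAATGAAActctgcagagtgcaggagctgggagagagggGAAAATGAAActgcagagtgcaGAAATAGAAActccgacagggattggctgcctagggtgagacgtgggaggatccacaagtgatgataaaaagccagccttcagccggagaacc
IFITM3: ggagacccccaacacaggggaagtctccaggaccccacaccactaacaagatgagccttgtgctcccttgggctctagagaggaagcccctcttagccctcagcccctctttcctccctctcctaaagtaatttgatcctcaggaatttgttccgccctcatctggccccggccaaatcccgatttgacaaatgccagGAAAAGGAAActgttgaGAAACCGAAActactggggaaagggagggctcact
Among the matched genes of this list, 10 of 19 called higher in PC3 (52.6%) and 9 of the other 16 tested (56.3%) held the core, against 3.07% of all promoters of this length. HERC5, higher in DU145, was among the latter. The difference between these shares was not tested. A match is a description of the letters and not of binding.

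Antigen presentation genes were on the opposite side from the interferon genes. Of 17 tested (22 listed), 9 were called higher in DU145 and 2 in PC3, with a median of -1.22. HLA-B gave a log2 fold change of -2.86 and PSMB9, an immunoproteasome subunit, -2.63. The class II genes HLA-DRB1, with 116, 133 and 141 counts in DU145 and 0, 0 and 0 in PC3, and HLA-DMA (-3.29) were also higher in DU145. HLA-E, a ligand of natural killer cell receptors, was higher in PC3 (1.05), though under 2-fold with upper quartile factors (0.95). Reads of HLA genes may be shared among alleles and paralogs, so their levels are uncertain.

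HOX genes, which record the position along the body axis of the tissue a cell came from, separated the lines. Of 31 tested (39 listed), 24 were called higher in DU145 and 4 in PC3, with a median of -2.64. HOXB7 gave 439, 425 and 406 counts in DU145 and 0, 0 and 0 in PC3, HOXB9 603, 597 and 674 counts in DU145 and 1, 3 and 1 in PC3, and HOXC10 (-7.05) followed. The 4 genes higher in PC3 were HOXB13, HOXA13 (3.90), HOXA9 (3.59) and HOXA4 (2.89). Within the HOXB cluster HOXB7 and HOXB9 were off in PC3 and HOXB13 was off in DU145, as the plot of the HOX genes shows. HOXB6, the expressed gene beside HOXB7, was present in both lines, with 515, 523 and 517 counts in DU145 and 180, 199 and 195 in PC3.

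**Figure D4:**
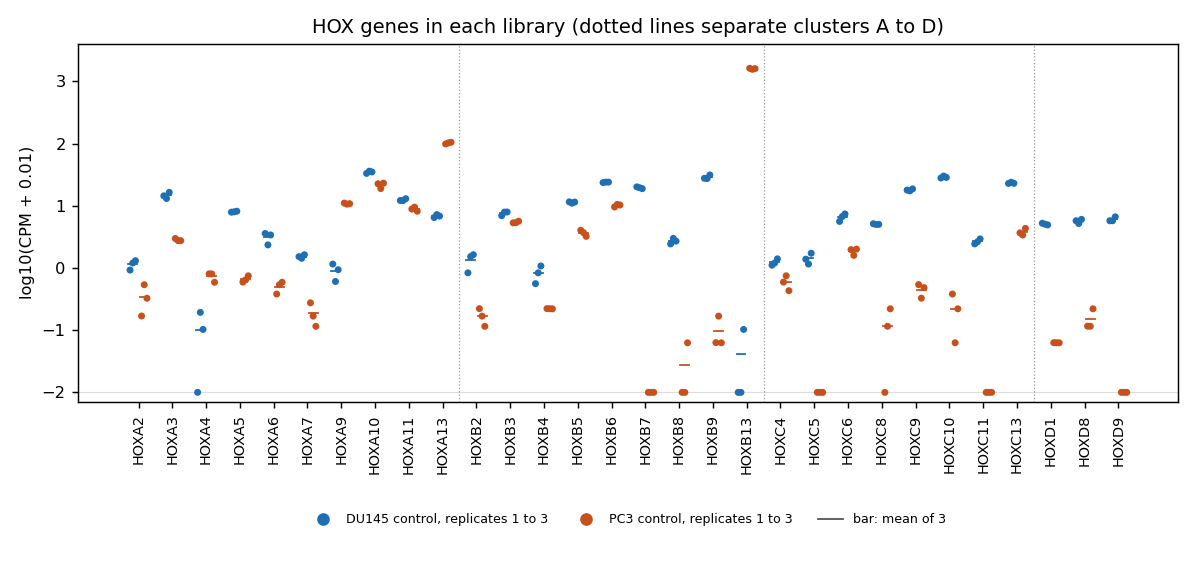
Level of tested HOX genes in the 3 DU145 and 3 PC3 libraries, as log10(CPM + 0.01), ordered by cluster and gene number, with bars at the means. DU145 points lie above PC3 points for most genes, and PC3 points lie above for HOXB13, HOXA13, HOXA9 and HOXA4.

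Other lineage transcription factors gave 15 calls higher in PC3 and 10 in DU145 of 31 tested (35 listed), with a median of 0.92. SOX9, a factor of progenitor and cartilage cells, gave 17, 14 and 17 counts in DU145 and 4616, 4668 and 4921 in PC3 (8.40), and RUNX3 1155, 1315 and 1324 counts in DU145 and 4, 3 and 5 in PC3 (-8.06). Nuclear receptors gave 7 calls each way of 24 tested (29 listed), with a median of 0.11. NR3C1, the glucocorticoid receptor, was higher in DU145 (-2.45 ± 0.052), with 2555, 2721 and 2531 counts in DU145 and 407, 421 and 414 in PC3. NR2F1, an orphan receptor, was higher in PC3 (4.98). Among neuroendocrine and neural genes 13 of 30 could be tested, 4 called each way with a median of 0.33; UCHL1 was a DU145 gene, and NEFL, neurofilament light (8.07), and FOXA2, with 1, 0 and 1 counts in DU145 and 504, 504 and 472 in PC3, were PC3 genes. Prostate stem and progenitor genes gave 5 calls higher in PC3 and 4 in DU145 of 11 tested (16 listed) with a median of -0.87: ALDH3A1 (4.36), ALDH1A3 (4.35) and CD44 (1.97) were higher in PC3. Of 44 cancer testis antigens only 7 reached the test, 3 called each way with a median of 0.76, which turned to between -2.88 and -2.83 without DU145 replicate 3 or without any single PC3 library; BRDT gave 921, 851 and 846 counts in DU145 and 0, 0 and 0 in PC3.

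Oxidative stress genes were more often higher in DU145. NRF2 targets and glutathione genes gave 20 calls higher in DU145 and 4 in PC3 of 37 tested (39 listed), with a median of -1.21. AKR1B1, aldose reductase, gave 29159, 29890 and 30408 counts in DU145 and 19, 16 and 24 in PC3, 1313-fold higher in DU145 (-10.36 ± 0.079; edgeR adjusted p = 1.25e-55). NQO1 (-2.76), GCLM (-3.23), HMOX1 (-3.59) and TXNRD1 (-1.29) were higher too, and GSTM1, a gene often deleted in people, gave 865, 846 and 865 counts in DU145 and 3, 3 and 1 in PC3. ABCC3, an organic anion exporter, was higher in PC3 (2.52). The ferritin chains were exchanged: FTL was higher in DU145 (-2.61 ± 0.043) and FTH1 higher in PC3 (2.13 ± 0.042), both with many processed pseudogenes that may share their reads. TKT, transketolase of the pentose phosphate pathway, was also higher in DU145, with 1369 ± 55.7 against 289.6 ± 6.17 CPM (SD, n = 3).

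Metallothioneins, small proteins that bind zinc and copper, were higher in DU145 in all 6 members tested (11 listed), with a median of -4.99, or -3.16 with the genes that were off set at their limit. MT1E gave 3117, 2972 and 3038 counts in DU145 and 0, 0 and 0 in PC3, at least 883-fold higher in DU145, MT2A 5213, 5277 and 5343 counts in DU145 and 1925, 1889 and 2054 in PC3 (-1.23) and MT1X 34, 25 and 29 counts in DU145 and 10, 12 and 9 in PC3 (-1.30). MT1M gave 25, 19 and 29 counts in DU145 and 0, 1 and 0 in PC3 with the control guide, but its log2 fold change was 2.17 with guide 2 and 2.11 with guide 10. These genes are near-identical in places and their reads may be shared. The pattern TGCNCNC was searched on both strands. It covers the metal response element core that the zinc sensor MTF1 reads but is looser than that core. Matches are in capitals in the 250 bases before the start of MT2A (chr16:56608334-56608583, plus strand) and MT1X (chr16:56682220-56682469, plus strand), from RefSeq GRCh38.p14.
MT2A: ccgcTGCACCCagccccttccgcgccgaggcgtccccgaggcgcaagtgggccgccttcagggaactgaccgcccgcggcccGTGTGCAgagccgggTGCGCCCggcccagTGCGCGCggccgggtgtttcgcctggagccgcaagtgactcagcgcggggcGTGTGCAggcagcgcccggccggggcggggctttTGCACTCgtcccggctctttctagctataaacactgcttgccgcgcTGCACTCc
MT1X: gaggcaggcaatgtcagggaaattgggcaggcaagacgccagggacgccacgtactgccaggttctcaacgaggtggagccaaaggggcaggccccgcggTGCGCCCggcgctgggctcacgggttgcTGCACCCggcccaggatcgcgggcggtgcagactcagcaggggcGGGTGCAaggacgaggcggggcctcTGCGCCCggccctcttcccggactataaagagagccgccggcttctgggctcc
MT2A held 7 matches and MT1X 4. The pattern is short and loose. At least 1 match was held by 48.4% of all promoters of this length and by 56.3% of those matched to tested genes.

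Sterol and fatty acid synthesis genes were more often higher in PC3, 11 of 26 against 1 in DU145, with a median of 0.61. SQLE, squalene epoxidase (2.45 ± 0.043), ACSS2 (2.31) and FASN, fatty acid synthase (1.72), were higher in PC3, and the elongase ELOVL6 higher in DU145 (-2.36). Glycolysis and hypoxia genes were close to balance, 6 and 7 calls of 29 tested (31 listed) with a median of 0.07; ALDOC (3.65) was higher in PC3 and CA2, a carbonic anhydrase, gave 201, 215 and 205 counts in DU145 and 3, 0 and 0 in PC3.

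Cell cycle genes were higher in DU145 in 19 of 33 tested (34 listed) and in PC3 in 2, with a median of -1.23. AURKB (-2.50), CDC20 (-2.45), TOP2A (-2.43) and the helicase subunit MCM4 (-2.01) were higher in DU145, and the 2 exceptions were the G1 regulators CCND1, cyclin D1, with 3474, 3713 and 3582 counts in DU145 and 16997, 17217 and 17294 in PC3 (2.46), and CDK6 (1.90). MYC gave 1749, 1707 and 1818 counts in DU145 and 3906, 4187 and 3924 in PC3 (1.39 ± 0.043). Cytosolic ribosomal protein genes were nearly level, 6 and 5 calls among 77 (11 higher in DU145 with library totals) with a median of 0.04; RPS24 (1.92) and RPS27 (-2.27) were the extremes, and both have processed pseudogenes that may share their reads. DNA methylation and Polycomb genes gave 4 calls higher in DU145, RNF2 (-2.45) the largest, and 1 in PC3, TET1 (1.33), of 20 tested (21 listed), with a median of -0.83. Calls higher in DU145 numbered 7 with upper quartile factors and 12 with library totals. BCL2 family genes gave 5 and 3 calls of 15 tested (17 listed) with a median of 0.43, which turned to -0.04 without the filter on low counts. With library totals 1 gene was called higher in PC3. BCL2 was higher in PC3 (1.41) and BID, a death promoter, higher in DU145 (-1.11).

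The plot of calls by list places the sets side by side against the shares over all genes. More than 50% of the tested members were called higher in DU145 for HOX genes, metallothioneins (6 tested), caveolar genes (8 tested), NF-kB genes, tight junction genes, cell cycle genes, NRF2 targets and antigen presentation genes. More than 50% were called higher in PC3 for interferon-stimulated genes, luminal genes, proteases, ERK feedback genes and bone regulators (5 tested). Among the 5 testable markers of other cell types the share was above 50% on the DU145 side. The caveolar, bone and other cell type lists are not plotted.

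**Figure D5:**
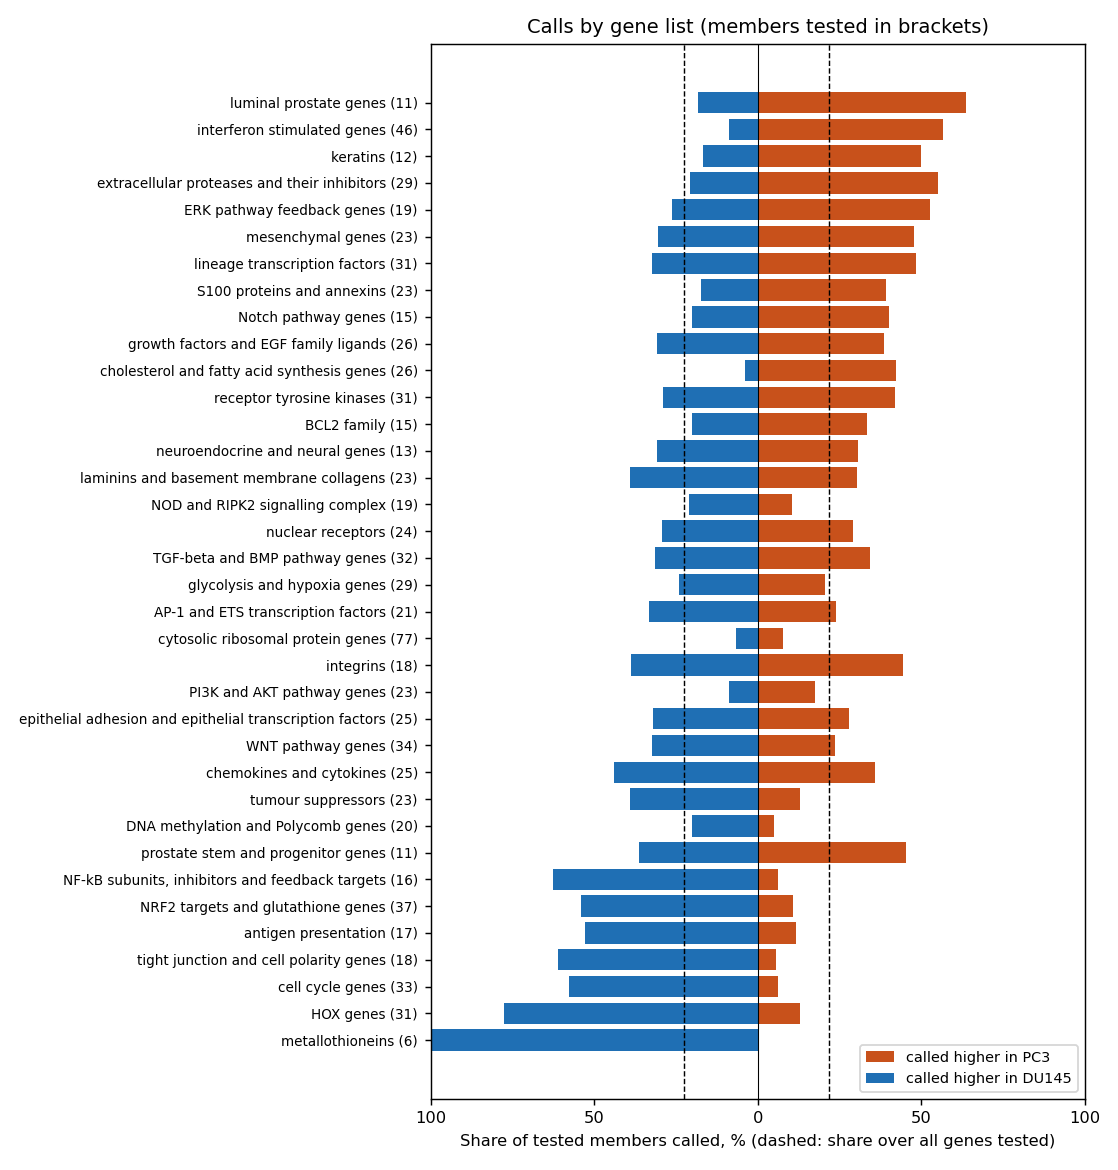
Share of tested members called higher in PC3 (to the right) and higher in DU145 (to the left) at 2-fold and an adjusted p of 0.05, for the lists described here with at least 10 tested members and for metallothioneins, ordered by median log2 fold change. Dashed lines mark the shares over all genes tested, 21.8% and 22.6%.

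Developmental ligand pathways differed gene by gene. WNT pathway genes gave 8 calls higher in PC3 and 11 in DU145 of 34 tested (39 listed), with a median of -0.45. WNT7A gave 0, 0 and 1 counts in DU145 and 948, 1019 and 957 in PC3, the receptor FZD8 was higher in PC3 (8.21), DKK1, a secreted WNT inhibitor, was higher in PC3 (3.56), and LEF1, a nuclear effector, gave 120, 108 and 105 counts in DU145 and 0, 0 and 0 in PC3. TGF-beta and BMP genes gave 11 and 10 calls of 32 tested (36 listed), with a median of 0.08. The BMP target ID3 gave 3145, 2942 and 3214 counts in DU145 and 13, 13 and 16 in PC3 (-7.58) and ID1 was also higher in DU145 (-3.52). The BMP and activin antagonists NOG, with 2, 6 and 3 counts in DU145 and 2101, 2193 and 2210 in PC3, and FST (8.69) and the activin chain INHBB, with 1, 0 and 0 counts in DU145 and 578, 590 and 615 in PC3, were PC3 genes. Notch genes gave 6 and 3 calls of 15 tested (17 listed), with a median of 0.79. The ligand JAG1 gave 18, 17 and 14 counts in DU145 and 2833, 3034 and 2947 in PC3 (7.68) and the target HEY1 (7.27) was higher in PC3, and the receptor NOTCH3 was higher in DU145 (-4.22).

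Of 15 bone matrix and osteoclast regulators 5 were tested, 3 called higher in PC3 and 1 in DU145, with a median of 3.56. PTHLH, parathyroid hormone-related protein, which drives bone resorption in metastases, gave 12, 13 and 10 counts in DU145 and 937, 1216 and 1262 in PC3 (6.79), and SPP1, osteopontin, was off in PC3, with 44, 38 and 38 counts in DU145. S100 proteins and annexins gave 9 and 4 calls of 23 tested (30 listed), with a median of 0.85: S100P (5.01) and ANXA10, with 2, 1 and 1 counts in DU145 and 604, 641 and 610 in PC3, were higher in PC3 and ANXA3 (-1.39) in DU145.

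Apart from the lists, the largest folds among genes detected in both lines were for MSMP, a secreted microseminoprotein, with 6, 9 and 15 counts in DU145 and 138363, 121951 and 134235 in PC3 (14899-fold), and in the other direction BCAT1, the branched-chain aminotransferase, with 7138, 7394 and 7042 counts in DU145 and 1, 0 and 5 in PC3. MSMP alone made up 6939 ± 461 CPM of the PC3 libraries (SD, n = 3). Others of this kind higher in PC3, beside NOG and DUSP4, were SIDT1, the elastase inhibitor PI3, the trypsin PRSS3, serglycin (SRGN), the sialyltransferase ST3GAL1, SPTSSB and FAM131B, with log2 fold changes between 9.36 for NOG and 10.78 for SIDT1. Those higher in DU145 were IGSF3, RIMS4, EFEMP1, FAM83A, the lysosomal galactosylceramidase GALC, DAW1 and ZNF516, between -9.27 for IGSF3 and -8.31 for ZNF516.

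Mitochondrially encoded transcripts took 4.44% to 4.69% of the PC3 counts and 1.26% to 1.32% of the DU145 counts (95% Wilson intervals no wider than 0.0183 percentage points in any library, counting error only). The shares varied within a line by guide. With guide 2 they were 4.34% to 4.59% in PC3 and 1.75% to 2.89% in DU145. With guide 10 the lines lay closer, at 2.90% to 3.20% in PC3 and 2.46% to 2.77% in DU145. MT-CO1, a subunit of complex IV, stood at 2694 ± 32.6 CPM in DU145 and 15371 ± 266 CPM in PC3 (SD, n = 3; log2 fold change 2.51), with MT-CO2 in the same direction (1.73), and MT-RNR2, the large ribosomal RNA, at 574 ± 31.4 and 7693 ± 234 CPM (3.74).

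The same line contrast was read in libraries that the comparison did not use, those with RIPK2 guides, fitted over all 18 libraries of the lines. With guide 2, 7056 of 16208 genes tested were called (43.5%), and with guide 10 7448 (46%). Of the 3306 genes called higher in PC3 with the control guide, 2536 (76.7%) were called in the same direction with guide 2 and 2338 (70.7%) with guide 10, 2023 (61.2%) with both, and 16 and 74 were called in the opposite direction. Of the 3419 called higher in DU145, 2511 (73.4%), 2375 (69.5%) and 2000 (58.5%) held, and 52 and 88 were opposite. STAT3, CAVIN1, UCHL1 and HOXB13 were again high in one line and low in the other: HOXB13 had 0 to 1 counts in the DU145 guide libraries and 19929 to 22075 in the PC3 ones, and UCHL1 22063 to 39817 and 0 to 2. Other genes named above changed more. KRT20 had 0 to 2 counts in the DU145 guide libraries and only 17 to 162 in the PC3 ones. TWIST2, off in the PC3 control libraries, had 290 to 387 and 0 to 262, and RUNX3 had 676 to 1010 and 59 to 508. RIPK2 itself, the gene the guides target, differed by 0.94 with guide 2 and -0.24 with guide 10, and MYC by -0.05 and -0.48, against 1.39 with the control guide.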

How the data were processed

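RNA was sequenced from 27 libraries of 3 prostate cancer lines, 9 per line, of which the 6 control guide libraries of DU145 and PC3 enter the main comparison. Per the labels' protocols, total RNA was purified on spin columns, made into strand-specific mRNA libraries and read as paired 150-base reads on a DNBSEQ instrument. The authors deposited raw read counts per gene symbol, with 1 table per line; the submitters' processing notes name FastQC, STAR, edgeR and the genome build hg38, and the counting program, its strand setting and the annotation are not given in the sources used here. No column of the tables lay outside the labelled samples (0 columns).

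The tables were joined on symbol, and a symbol missing from one table was taken as 0 counts: 21018 symbols were in both tables, 2514 in the DU145 table only and 2444 in the PC3 table only. Repeated symbols were summed. The tables hold only symbols with a count in some library of their line, so a missing symbol may also be one that the counting named differently. Tests used edgeR 4.0.16 in R 4.3.3: filterByExpr with a minimum count of 10, TMM factors between 0.92 and 1.09, robust glmQLFit and two-sided glmQLFTest, with Benjamini-Hochberg adjustment over all genes tested. A call needed an adjusted p below 0.05 and a fold of at least 2. DESeq2 1.42.0 and limma 3.58.1 (voom) were alternatives, beside other scaling, filters, sets of libraries and symbols, a replicate term and leaving out each library. The scripts were tested on simulated data.

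Each library was counted as 1 sample, although the labels do not say whether the libraries of a line came from separate cultures. Replicate libraries differed by more than counting noise (chi-square per degree of freedom between 2.13 and 3.56), a spread that may still be technical. The members and the 41 gene lists were chosen with earlier results of these data known, and a list's counts are a description. Genes were named by a rule: 14 genes tied to the study or to these lines, list members, with always the largest called fold each way at 5 CPM or more, the 12 highest on-off genes each way, the 10 largest folds each way at 50 CPM or more, the 6 largest CPM differences each way, and stretches of 3 or more on-off neighbours. Other genes are said to be chosen after their values were seen. Y-linked genes and XIST are not reported, and some genes and a list of the rule are not reported here. Promoter letters and gene positions came from RefSeq (GRCh38.p14).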

Additional observations from a re-analysis of the deposited data

Results flagged for a closer look

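Several genes described above had a line difference of the opposite sign in libraries with RIPK2 guides, with every PC3 library on one side of every DU145 library under the control guide and on the other side under the guide named. These differences between guides were not tested. Values are log2 fold changes, PC3 minus DU145, with the control guide first.

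With both RIPK2 guides the sign turned for ITGA7, a laminin receptor chain, from -2.19 to 1.98 with guide 2 and 2.03 with guide 10. MT1M, a metallothionein, turned from a control difference in which PC3 had at most 1 count to 2.17 with guide 2 and 2.11 with guide 10. With guide 2 alone KRT18 went from 0.31 to -0.75.

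With guide 10 the epithelial genes DSC2 (-6.46 to 0.67) and KRT7 (-3.16 to 0.34) turned, as did ESRP1, which was off in the PC3 control libraries and stood at 0.79. ERBB3, a receptor of the EGFR family, went from -2.44 to 0.48, the AP-1 factor BATF3 from -4.44 to 0.61 and the interferon-stimulated gene IFI27 from -1.27 to 0.45, a guide 10 value that did not pass (edgeR adjusted p = 0.0577). The cell cycle kinase CDK6 went from 1.90 to -3.12 and MYC from 1.39 to -0.48. RIPK2 itself, the target of the guides, went from 0.66 to -0.24. Smaller values were those of the chaperone HSPA9 (-0.49 to 0.18) and of KRT8 (-0.15 to 0.13), whose guide 10 value did not pass (edgeR adjusted p = 0.318).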

How the results depend on the processing

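The total of 13477 genes at an adjusted p of 0.05 ran from 13000 (all 27 libraries fitted) to 15228 (no filter on low counts) over the 18 alternatives, with 13401 to 13604 when 1 library was left out, and that of 6725 genes at 2-fold from 6418 (symbols in both tables only) to 8547 (no filter), with 6894 to 6975. DESeq2 gave 13045 and 6715, and limma 13462 and 6722. Replicate numbers did not pair the samples (correlations of deviations -0.059, 0.037 and 0.011), and the replicate block gave 13473 and 6724 calls. The guide 2 and guide 10 counts ran from 7056 to 8124 and from 7445 to 8766, with 7072 to 7254 and 7526 to 7673 when 1 of the 12 guide libraries was left out. Library totals, and all alternatives of the guide counts, were chosen after seeing the data.

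Of 256 single genes, 4575 of 4583 values kept direction and call. With library totals STK11 turned to -0.014, ATM (0.83) and HLA-E (0.81) lost the 2-fold call, and RB1 (-1.11) gained it. ATM (0.98) and HLA-E (0.95) also lost it with upper quartile factors. ATM ranged from 0.99 to 1.15 when 1 library was left out, with 0.99 without DU145 replicate 3, and IFI27 from -1.48 to -0.99, with -0.99 without PC3 replicate 3. The cause was not tested.

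Of 82 list counts, 14 of 1476 values moved by over 1.5 times, all but 1 of them given here. Library totals took calls higher in DU145 from 5 to 11 for ribosomal proteins, 2 to 5 for PI3K genes and 4 to 12 for Polycomb genes (7 with upper quartile factors), and calls higher in PC3 from 5 to 1 for the BCL2 family and, as with upper quartile factors, from 2 to 1 for antigen presentation. Without the filter, which lets more genes in, cancer testis antigens went from 3 to 5 each way, bone genes higher in PC3 from 3 to 5, keratins higher in DU145 from 2 to 4, and markers of other cell types from 2 to 4 and from 3 to 5.

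List medians turned sign in 32 of 738 values, in 11 lists. Most of these lists had a median near 0 or few tested genes, but the BCL2 family had 0.43 over 15 tested genes. Another 148 values kept their sign but moved by at least the SD of the list's median level between libraries of a line. With library totals the median was -0.12 for the NOD and RIPK2 list and for nuclear receptors, -0.16 for glycolysis and for TGF-beta genes, -0.19 for ribosomal proteins and -0.17 for AP-1 and ETS factors. With upper quartile factors it was -0.020 for glycolysis, -0.017 for TGF-beta genes, -0.051 for ribosomal proteins and -0.033 for AP-1 and ETS factors, which stood at -0.073 with symbols in both tables only. Without the filter it was 0.31 for integrins, -0.33 for cancer testis antigens, -0.070 for glycolysis, -0.041 for the BCL2 family and 1.45 for markers of other cell types. With 18 libraries fitted it was -0.0084 for glycolysis, -0.021 for TGF-beta genes and -0.051 for the BCL2 family, and with 27 libraries 0.21 for epithelial genes, -0.020 for glycolysis, -0.063 for the BCL2 family and 1.92 for markers of other cell types. Without mitochondrial messenger RNAs integrins stood at 0.31. When 1 library was left out the median ranged from -0.030 to 0.024 for integrins, from -2.88 to 0.76 for cancer testis antigens and from -0.0016 to 0.11 for ribosomal proteins. Depth limits genes under 3 counts, for which folds are lower limits.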
